A study of Mus musculus with 30 samples.

Results

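Ribosomal protein genes encode the protein subunits of the cytosolic ribosome, and their RNA was followed here in mouse retinal ganglion cells (RGCs, whose axons carry visual signals to the brain) after optic nerve crush, together with the accessibility of their promoters. Members were all rows of the RNA count table whose symbol starts with Rpl or Rps followed by a number, or is Rplp0, Rplp1 or Rplp2, without the Rps6k kinase genes and the named pseudogenes. This gave 82 of 13752 rows, and all 82 passed the filter on low counts. They comprised 43 proteins of the large subunit, 30 of the small subunit, the 3 proteins of the P stalk, 5 paralogs (Rpl22l1, Rpl7l1, Rpl36al, Rps27l and Rps4l) and Rps19bp1, a binding protein of RPS19 that the name rule takes in and that is given apart where it matters. The promoter set held 85 accessible regions (peaks) assigned to 63 of the 82 genes.

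RNA-seq covered retinas without crush (day 0, 3 libraries) and days 1 (3), 2 (2), 3 (3) and 4 (2) after crush. Replicate 3 of day 2 and replicate 1 of day 4 were not analysed here. ATAC-seq, which cuts open chromatin with a transposase, covered days 0 (6 libraries), 1 (3) and 3 (6). All mice are labelled C57BL/6 except day 0 RNA replicates 2 and 3, which are labelled C57BL/7 and C57BL/8. Cells were freed with papain and sorted by FACS, and the labels name neither the sorting marker nor the animals' age or sex. The file headers call the ATAC libraries and the authors' comparisons nonTarget or NT, a term the labels do not explain. The labels do not say whether replicates are different animals, and p-values therefore cover only the spread among these libraries, which may be technical.

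Each ribosome holds 1 copy of most of these proteins, so cells usually make them in matched amounts. Many of their messages begin at a cytosine followed by a pyrimidine run, the 5′ terminal oligopyrimidine (TOP) motif, through which the kinase complex mTORC1 and the RNA-binding protein LARP1 govern their translation. RNA abundance and translation of TOP messages can therefore move apart, and only RNA was measured here. In RGCs, mTORC1 activity is known as a driver of axon regrowth after nerve crush.

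Start regions of 7 genes whose RNA is described below are shown with the longest pyrimidine run near each annotated start. A TOP motif begins at the first base of the message. The runs marked may lie before or after that base, so they are not TOP motifs as such. RefSeq promoter windows (GRCm38.p6, 250 bases before and 50 after the annotated gene start) matched 61 of the 82 genes by symbol, in 72 windows. Each line runs 5′ to 3′ on the gene's strand from 20 bases before the start, with 30 bases from the start on, and capitals mark the longest pyrimidine run that holds a cytosine.
Rps6 (chr4:86857338-86857387, minus strand): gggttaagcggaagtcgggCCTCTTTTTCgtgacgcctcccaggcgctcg
Rps12 (chr10:23787180-23787229, minus strand): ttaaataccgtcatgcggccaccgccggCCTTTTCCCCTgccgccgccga
Rps15a (chr7:118116118-118116167, minus strand): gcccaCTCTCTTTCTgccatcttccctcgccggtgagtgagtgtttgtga
Rps27l (chr9:66946066-66946115, plus strand): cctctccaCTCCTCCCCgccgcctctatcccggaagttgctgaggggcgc
Rplp0 (chr5:115559447-115559496, plus strand): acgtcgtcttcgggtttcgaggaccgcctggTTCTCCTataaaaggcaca
Rpl10 (chrX:74270796-74270845, plus strand): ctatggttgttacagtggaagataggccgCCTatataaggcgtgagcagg
Rpl24 (chr16:55966255-55966304, plus strand): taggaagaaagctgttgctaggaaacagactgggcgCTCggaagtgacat

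The run was 10 bases long in Rps6 and Rps15a, 11 in Rps12, 9 in Rps27l and 7 in Rplp0, but only 3 in Rpl10 and Rpl24. Counted from the annotated start, it began at -1 in Rps6, -15 in Rps15a, 8 in Rps12, -12 in Rps27l and 11 in Rplp0. Of these longer runs, only that of Rps6 spans the annotated start. Another window of Rps27l, not shown, held a run of 5. A run of at least 8 was found in 35 of the 72 windows of ribosomal protein genes (48.6%) and in 18.8% of all 32851 windows. The letters CTTTCC stood in 15.3% of the members' start regions against 2.4% of all, and CTTTTC in 6.9% against 1.7%. Over the whole 300 bases and on both strands, the ETS-type letters CCGGAAG were found in 34.7% of the members' windows against 8.9% of all windows, the YY1-type AAGATGGC in 11.1% against 2.7%, the SP1-type GGGCGG in 62.5% against 35.7%, and the CRE letters TGACGTCA in 6.9% against 1.8%. The letters TATAAA were in 9.7% against 13.6%, the E-box CACGTG in 11.1% against 7.2%, the NRF1-type GCGCATGC in 4.2% against 2.7%, and the ATF4-type TGATGNAA in 0% against 4%. These are matches of letters in a fixed window around annotated starts and do not show binding or the true start of transcription.

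RNA of ribosomal protein genes was higher after crush, and no gene of the set passed the test as lower on any day. Their summed level, as CPM (counts scaled to a common library total) with TMM-scaled library sizes, was 2795, 2634 and 2741 in the 3 day 0 libraries. It was 3342, 2981 and 3396 on day 1, 3588 and 3827 on day 2, 3728, 3999.8 and 4428 on day 3, and 4168 and 3752 on day 4. Every library after crush lay above every day 0 library, and the ranges of days 3 and 4 overlapped. The mean was 1.19, 1.36, 1.49 and 1.45 times that of day 0 on days 1 to 4. The genes together took 0.256% to 0.271% of all counts on day 0 and 0.374% to 0.456% on day 3, out of 19024286 to 27561352 counts per library. In bulk libraries, a change in the mix or number of cells and a change in RNA per cell cannot be told apart.

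**Figure D1:**
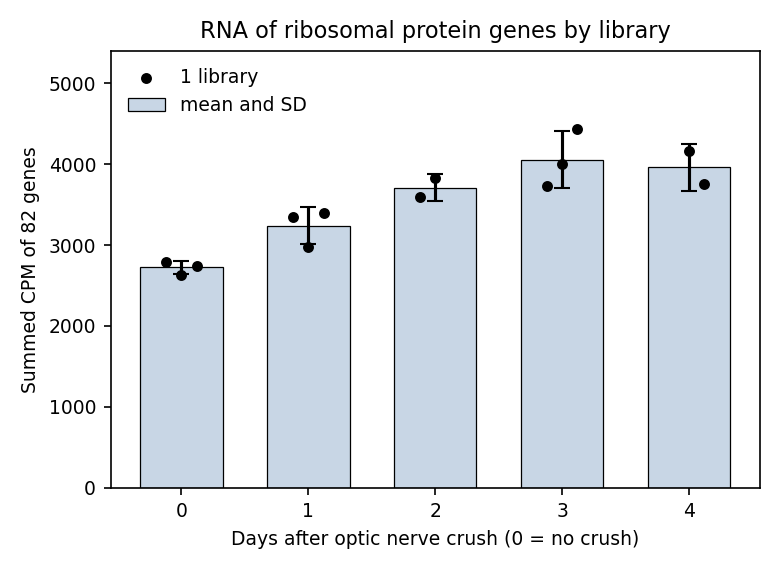
Summed CPM of the 82 ribosomal protein genes (vertical axis) by days after optic nerve crush (horizontal axis, 0 is no crush). Points are libraries, bars the mean and whiskers the SD. All 10 libraries after crush sit above the 3 libraries of day 0, and the day 3 libraries reach from 3728 to 4428.

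With edgeR's quasi-likelihood test and an adjusted p under 0.05 over all 13737 genes tested, 11 of the 82 genes were higher and 0 lower on day 1, 27 and 0 on day 2, 46 and 0 on day 3, and 39 and 0 on day 4. Of all genes tested, 5.93% were higher and 5.45% lower on day 1, 14.8% and 14.5% on day 2, 20.4% and 20.1% on day 3, and 19.8% and 19% on day 4. The members called higher thus made up 13.4%, 32.9%, 56.1% and 47.6% of the set, above the share over all genes on each day in this fit. On days 1 and 2 this excess lay mainly in members with over 1000 counts per library on average, as given below. Even at an unadjusted p under 0.05 edgeR put 0 members lower on any day, and DESeq2 also called 0 lower. The median log2 change of the 82 genes was 0.213, 0.364, 0.535 and 0.449 on days 1 to 4, beside 0.013, 0.036, 0.026 and 0.057 for all genes. On day 1 all libraries lay above all of day 0 for 32 of the 82 genes, where 13.9% of all genes did so; on day 3 this held for 60 genes, against 24.6% of all genes, and 2 members, Rpl27a and Rpl36a, lay wholly below day 0 without passing the test (adjusted p = 0.111 and 0.345). Wholly below day 0 were 14.5% of all genes on day 1, where 0 members were, and 23% on day 3. The 4 comparisons share the day 0 libraries, so they are not independent of each other. By mean CPM, 35 genes were highest on day 3, 31 on day 4, 14 on day 2 and 2, Rpl28 and Rps27a, on day 0.

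The day 1 count was the least stable. It was 2 and 6 without day 0 replicates 2 and 3, and 3 and 2 without day 1 replicates 1 and 3. Of all genes, 4.1%, 6.22%, 3.54% and 4.44% were higher in these fits, in that order. The members' day 1 share was thus near or below the background there. Without day 0 replicate 1 the count was 8, beside 5.3% of all genes, and without day 1 replicate 2 it was 12, beside 4.94%. With only days 0 and 1 in the fit it was 4, beside 3.05%. The day 2 count fell from 27 to 12 without day 2 replicate 2 and the day 4 count from 39 to 19 without day 4 replicate 2, each of which leaves 1 library of that day, whose spread is then assumed to be that of the other days. The day 3 count stayed between 33 and 46 whichever library was left out. Without day 3 replicate 2, Rpl27a, a large subunit protein named after its values were seen, was lower on day 3 (log2 change -0.595, adjusted p = 0.0436). Of the 46 genes higher on day 3, 30 were called under every alternative, and of the 11 on day 1 only Rps4x and Rps9 were. The authors' deposited table of their own model listed fewer. It had 2 members higher on day 1 (2.4%, beside 3.1% of all genes) and 12 on day 3 (14.6%, beside 8.4%), with 0 lower on either day (2.2% and 11.3% of all genes), so that its day 1 share was not above the background.

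**Figure D2:**
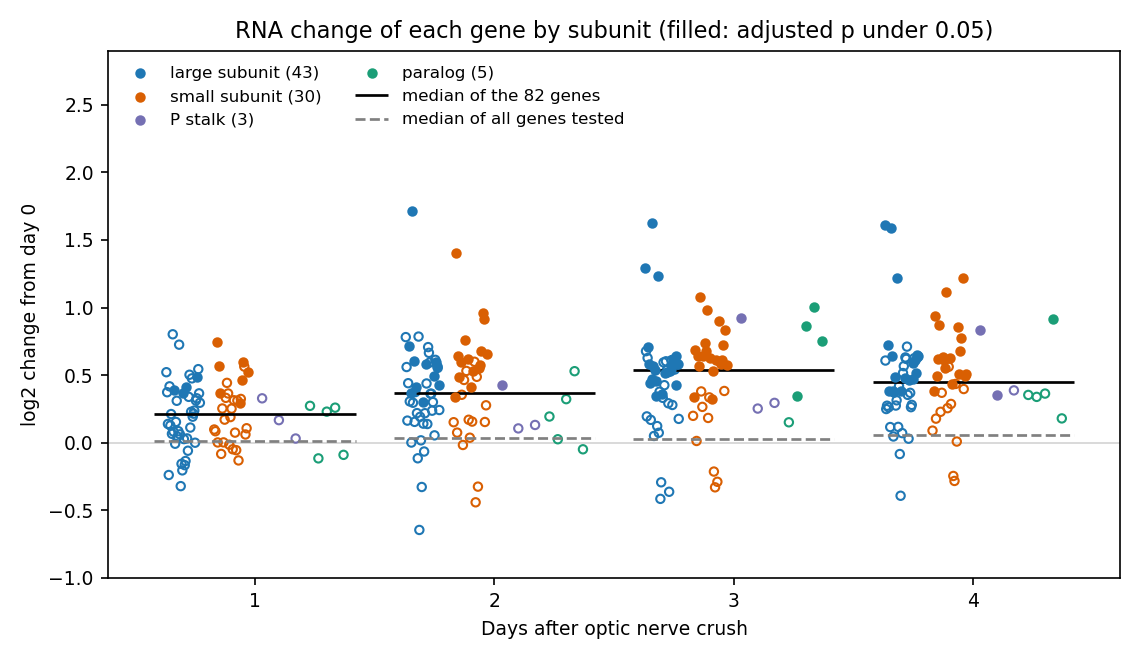
log2 change from day 0 (vertical axis) of each ribosomal protein gene on days 1 to 4 (horizontal axis), coloured by subunit, with Rps19bp1 left out. Filled points have an adjusted p under 0.05, solid lines are the median of the 82 genes and dashed lines that of all genes tested. All filled points lie above 0, and the median of the set peaks at 0.535 on day 3.

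On day 3, 20 of 30 small subunit genes and 21 of 43 large subunit genes were higher, with median log2 changes of 0.58 and 0.52, and the difference between the subunits was not tested. Among small subunit genes, Rps3, which lines the entry channel for messenger RNA, was chosen after its values were seen. Its CPM was 148, 147 and 144 on day 0, 189, 159.6 and 191 on day 1, 206 and 223 on day 2, 262, 267 and 291 on day 3 and 279 and 252 on day 4. No day after crush overlapped day 0, and the log2 change on day 3 was 0.90 ± 0.085 (SE, adjusted p = 2.21e-07). Rps4x, the X-linked copy of the RPS4 gene (chrX:102184941-102189394), was higher on all 4 days, by 0.47, 0.67, 0.59 and 0.68 on the log2 scale, and passed the test under every alternative.

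Rps12, a protein of the small subunit head (chr10:23785183-23787275), had its highest level on day 2. Its CPM was 4.28, 5.09 and 5.68 without crush, 8.66, 8.00 and 8.60 on day 1, 12.3 and 14.4 on day 2, 8.39, 7.46 and 8.39 on day 3 and 9.79 and 9.43 on day 4. The groups did not overlap day 0 at any time, and the day 2 libraries stood above all others. The day 1 call was lost without any of day 0 replicates 1 and 2 and day 1 replicates 1, 2 and 3 (adjusted p 0.0545 to 0.0994). Its log2 change was 0.74 ± 0.21 on day 1 (adjusted p = 0.0305) and 1.41 ± 0.23 on day 2 (adjusted p = 0.00018).

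Rps6, the protein phosphorylated by S6 kinase and a common readout of mTORC1 activity (chr4:86854660-86857412), had 4.98, 4.01 and 4.90 CPM on day 0 and 6.46, 7.03 and 7.03 on day 1. It had 9.90 and 7.55 on day 2, 6.58, 7.81 and 8.52 on day 3 and 13.5 and 8.05 on day 4. All libraries after crush were above day 0, while the day 4 pair was the farthest apart. The change was 0.56 ± 0.25 on day 1, which did not pass (adjusted p = 0.172), and 1.22 ± 0.28 on day 4, which did (adjusted p = 0.00193). Without day 4 replicate 2 that call was lost (adjusted p = 0.0795). Rps14, part of the small subunit platform, was at 37.8, 31.8 and 32.0 CPM on day 0 and 45.0, 41.0 and 64.7 on day 1, without overlap, and rose by 0.57 ± 0.15 (adjusted p = 0.0207); on days 2, 3 and 4 it was higher by 0.64, 0.64 and 0.50. The day 1 call of Rps14 was lost without day 0 replicate 2 or 3 (adjusted p = 0.073 and 0.0551) or day 1 replicate 3, its highest library (adjusted p = 0.115), the day 2 call without day 2 replicate 2 (adjusted p = 0.0778), and the day 4 call without day 0 replicate 2 or 3 or either library of day 4 (adjusted p 0.0566 to 0.143).

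Rps15a was flat on day 1 and high from day 2 on, a course outside the naming rule and chosen after its values were seen. Its CPM was 128, 151 and 130.1 on day 0, 134, 124 and 128 on day 1, 179.7 and 233 on day 2, 290.3, 296 and 275 on day 3 and 258 and 239.5 on day 4. Days 0 and 1 overlapped, and all libraries of days 2 to 4 lay above both. The log2 change was -0.083 ± 0.10 on day 1 (adjusted p = 0.65) and 1.07 ± 0.10 on day 3 (adjusted p = 1.32e-07), and day 3 exceeded day 1 by 1.16 ± 0.10 (adjusted p = 1.06e-07). A pair of its pseudogenes in the table, Rps15a-ps4 and Rps15a-ps6, had log2 changes of 0.52 (adjusted p = 0.251) and 0.63 (adjusted p = 0.0429) on day 1 and of 1.22 and 1.32 on day 3. Reads of near-identical copies may be split between these rows, and how the authors treated them is not given in the sources used here.

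Of the large subunit genes, Rpl4, a core protein of the exit tunnel, had the most counts of the set and was picked for that reason after its values were seen. Its CPM ran 315, 312 and 342 on day 0, 405, 358 and 379 on day 1, 450.1 and 457 on day 2, 484, 486 and 517 on day 3 and 519 and 453 on day 4. The days after crush did not overlap day 0, and the change was 0.24 ± 0.076 on day 1, just short of the threshold (adjusted p = 0.0525), and 0.62 ± 0.076 on day 3 (adjusted p = 4.69e-06). The largest log2 changes belonged to genes with few counts. Rpl17, a protein at the end of the exit tunnel, had 1.19, 0.993 and 1.24 CPM on day 0 and 3.04 and 4.47 on day 2, with changes of 1.71 ± 0.41 (adjusted p = 0.00485) on day 2 and 1.63 ± 0.38 (adjusted p = 0.00248) on day 3; on day 2 its adjusted p was 0.0783 without day 2 replicate 2. These levels rest on a mean of 60.3 counts per library for Rpl17.

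Rpl10, the late-joining protein that makes the large subunit competent for translation (chrX:74270812-74273135), was at 1.52, 3.28 and 1.94 CPM on day 0. It was at 3.33, 3.01 and 3.38 on day 1, 3.60 and 4.16 on day 2, 4.82, 5.63 and 6.10 on day 3 and 8.07 and 5.68 on day 4. Day 0 replicate 2 fell within the day 1 range, whereas days 2, 3 and 4 lay wholly above day 0. The change was 1.29 ± 0.34 on day 3 (adjusted p = 0.00569) and 1.61 ± 0.37 on day 4 (adjusted p = 0.00209). Rpl24, which helps to bridge the subunits (chr16:55966275-55971435), was at 1.57, 2.37 and 2.41 CPM on day 0 and 3.48, 5.02 and 6.56 on day 3, without overlap, and was 1.24 ± 0.36 higher on day 3 (adjusted p = 0.0108); without day 3 replicate 3 the adjusted p was 0.0568. The start regions of Rpl10 and Rpl24 shown above hold runs of only 3 pyrimidines, while those of Rps6 and Rps12 hold 10 and 11. These runs begin at different distances from the annotated starts, so this is not a comparison of TOP motifs.

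The 5S particle proteins Rpl5 and Rpl11, which also bind and hold back MDM2 when ribosome assembly is disturbed, did not pass the test. Rpl5 had changes of 0.54 ± 0.22 on day 3 (adjusted p = 0.0641) and 0.62 ± 0.25 on day 4 (adjusted p = 0.055), and Rpl11 of 0.19 ± 0.29 (adjusted p = 0.639) and 0.25 ± 0.33 (adjusted p = 0.589). Rpl3, near the peptidyl transferase centre, had 0.33 ± 0.16 on day 3 (adjusted p = 0.119). Rpl38, known for its role in the translation of Hox messages, had 0.61 ± 0.27 (adjusted p = 0.082). Rps25, needed by several internal ribosome entry sites, was higher on day 3 by 0.32 ± 0.12 (adjusted p = 0.0384), a call lost under 8 of 23 alternatives, among them without any 1 of the day 0 libraries or day 3 replicate 3 (adjusted p 0.0731 to 0.175). Rps27a, made as a fusion with ubiquitin, had -0.33 ± 0.49 on a mean of 44.5 counts (adjusted p = 0.634), which leaves a wide interval in both directions.

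In the P stalk, which recruits the elongation factors, Rplp0 passed the test on day 3 and its partners did not. Rplp0, the base of the stalk (chr5:115559467-115563727), had 31.3, 35.1 and 36.4 CPM on day 0, 47.1, 38.5 and 43.7 on day 1, 42.9 and 49.3 on day 2, 56.2, 65.7 and 73.0 on day 3 and 69.0 and 53.2 on day 4. All libraries after crush exceeded day 0, and the change was 0.92 ± 0.13 on day 3 (adjusted p = 2.79e-05). Rplp1 and Rplp2, the stalk's lateral dimer, had log2 changes of 0.25 ± 0.12 (adjusted p = 0.0997) and 0.29 ± 0.15 (adjusted p = 0.141) on day 3; Rplp1 was higher on day 4 (0.35 ± 0.13, adjusted p = 0.0427), a call lost on leaving out any of 8 libraries (adjusted p 0.05 to 0.311). Whether Rplp0 differed from Rplp1 and Rplp2 was not tested.

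**Figure D3:**
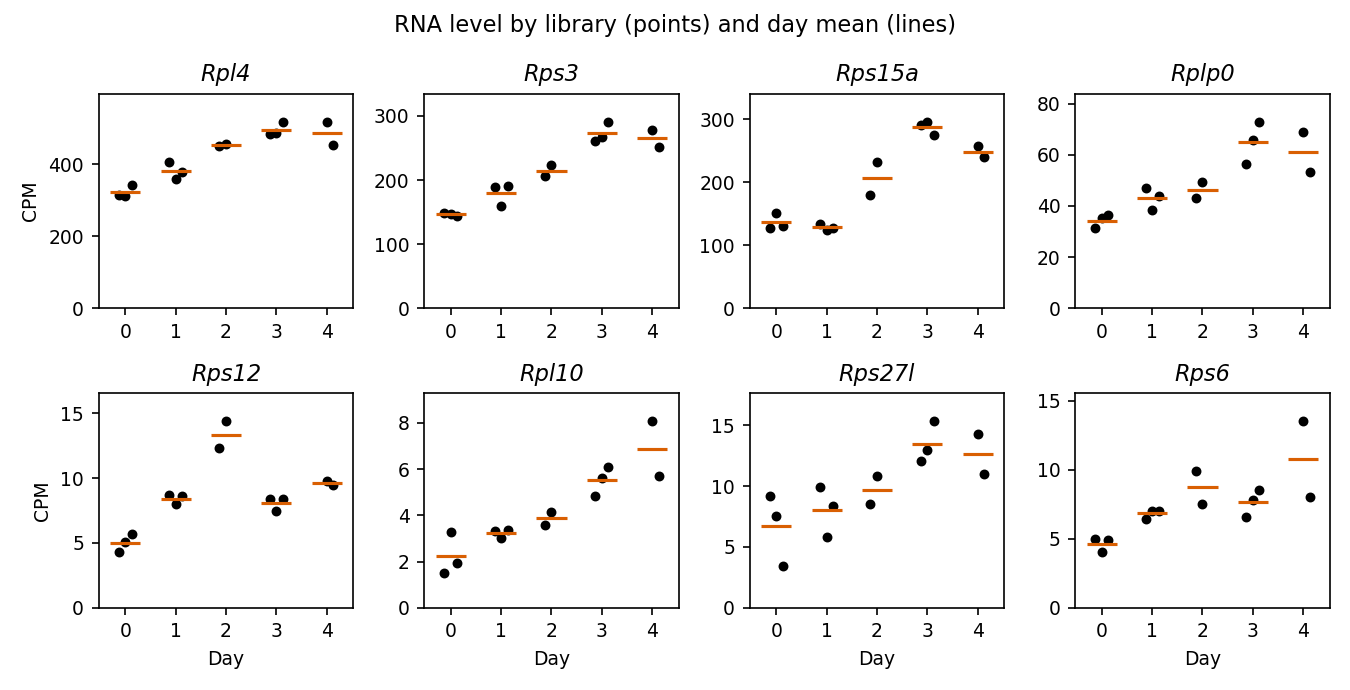
CPM (vertical axes) of 8 ribosomal protein genes by day after crush (horizontal axes), with libraries as points and day means as lines. Rps15a stays at its day 0 level on day 1, Rps12 is highest on day 2, and the other 6 have their highest mean on day 3 or 4.

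Paralogs can replace or modify the common subunit, and 4 of the 5 were higher on day 3. Rps27l, a p53 target related to Rps27, measured 9.20, 7.51 and 3.46 CPM on day 0 and 12.1, 12.96 and 15.3 on day 3, without overlap, and rose by 1.01 ± 0.30 (adjusted p = 0.0141; 0.0543 without day 0 replicate 3 and 0.0533 without day 3 replicate 3), while its partner Rps27 had -0.21 ± 0.56 (adjusted p = 0.798). Rpl7l1, related to Rpl7, had 17.7, 19.9 and 19.4 CPM on day 0 and 33.4, 37.0 and 33.2 on day 3, again without overlap. It was 0.86 ± 0.15 higher (adjusted p = 0.000202), and Rpl7 itself 0.43 ± 0.13 higher (adjusted p = 0.0157; 0.0534 without day 0 replicate 3). Rps4l, an autosomal relative of Rps4x, had 18.4, 10.3 and 14.6 CPM on day 0, 20.7, 22.9 and 29.3 on day 3 and 15.8 and 16.9 on day 4, so that its day 3 libraries lay above day 0 and those of day 4 did not. The day 3 change was 0.75 ± 0.21 (adjusted p = 0.0078). Rpl36al was higher by 0.35 ± 0.13 on day 3 (adjusted p = 0.0449), a call lost under 15 of 23 alternatives, 9 of which leave out 1 library (adjusted p 0.0528 to 0.209), and its partner Rpl36a had -0.36 ± 0.29 (adjusted p = 0.345). Rpl22l1 had 0.15 ± 0.14 on day 3 (adjusted p = 0.426), whereas Rpl22, which represses it in other cells, was higher by 0.35 ± 0.11 (adjusted p = 0.0155), a call lost without day 0 replicate 2 or 3 or day 3 replicate 3 (adjusted p 0.0586 to 0.0665). Rpl39 had 0.28 ± 0.15 (adjusted p = 0.158). The relatives Rpl39l, Rpl3l and Rpl10l were not analysed here, and no difference within a pair was tested.

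Members were also read by their counts. Of the 27 members with over 1000 counts per library on average, 25 were higher on day 3, against 29% of all genes at that depth. Of the 27 with 200 to 1000 counts, 16 were higher, against 22.9%, and of the 28 under 200 counts, 5 were, against 9.51%. On day 1 the shares of these 3 classes, deepest first, were 37%, 0% and 3.57%, against 7.89%, 6.25% and 3.71% of all genes. On day 2 they were 77.8%, 11.1% and 10.7%, against 21.2%, 14.6% and 8.81%. On day 4 they were 85.2%, 40.7% and 17.9%, against 27.9%, 20.4% and 11.3%. The classes under 1000 counts were thus near or below their background on days 1 and 2. On day 3 the median log2 changes of the 3 classes were closer together, at 0.58, 0.53 and 0.40, and the median SE grew from 0.115 to 0.163 and 0.335. In RefSeq, 58 of the 82 members have named pseudogenes, 303 in all, led by Rpl31 with 24 and Rps12 with 23, so that counts of such members are uncertain where reads could fit several copies. Rpl14-ps1, a pseudogene row with 2674 counts on average, was higher by 0.64 ± 0.10 on day 3 (adjusted p = 8.96e-05), and Rpl14 itself by 0.44.

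Day 3 was compared with day 1 to see when the change took place. Of the 82 genes, 16 were higher on day 3 than on day 1 and 0 lower, with a median log2 difference of 0.245 against 0.0013 for all genes. Over all genes, 16.1% were higher and 17.5% lower, so the share of 19.5% of members called higher was close to the background. The 16 included Rps15a, Rps3, Rplp0, Rpl4 and Rps19bp1, which is not a ribosomal protein; Rps12 and Rps14, which were high on day 1, differed between these days by -0.059 and 0.075 (adjusted p = 0.864 and 0.746). Without day 3 replicate 3, 10 members were called, and without Rps19bp1 the count is 15 of 81.

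Other genes of the translation machinery, from lists taken up with earlier results of these data known, were read beside the members. Of 18 translation factors and related genes with TOP messages, 6 were higher on day 1, 10 on day 2, 13 on day 3 and 9 on day 4. These were 33.3%, 55.6%, 72.2% and 50% of the list, beside 5.93%, 14.8%, 20.4% and 19.8% of all genes. Eef1a1, the factor that delivers aminoacyl-tRNA, measured 479.8, 447 and 422 CPM on day 0 and 989, 1011 and 1032 on day 3 and rose by 1.17 ± 0.079 (adjusted p = 3.43e-09). Pabpc1, the poly(A)-binding protein, rose by 0.58, 0.94, 0.74 and 0.97 on days 1 to 4. Eif3e was highest on day 2 (0.98 ± 0.10, adjusted p = 1.35e-06), as was Eif4b (0.97 ± 0.082, adjusted p = 1.87e-07). The 2 that were lower on days 3 and 4, outside the rule for named genes, were Eif3f (-0.38 ± 0.092 on day 3) and Nap1l1 (-0.22 ± 0.076).

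Genes of ribosome biogenesis, which make and fold ribosomal RNA into subunits in the nucleolus, were mostly called on days 3 and 4. Of 83 tested, 4 were higher and 5 lower on day 1, 14 and 3 on day 2, 39 and 1 on day 3, and 36 and 1 on day 4. The shares higher were 4.82%, 16.9%, 47% and 43.4%, beside 5.93%, 14.8%, 20.4% and 19.8% of all genes. On days 1 and 2 they were thus near the background. Nop14, a factor of the small subunit precursor, rose by 1.09 ± 0.12 on day 2 (adjusted p = 3.61e-06) and 1.53 ± 0.11 on day 3 (adjusted p = 8.75e-09). Nmd3, the export adaptor of the large subunit, rose by 1.10 ± 0.11 on day 3 (adjusted p = 3.1e-07), and Rrp12, also an export factor, by 1.75 ± 0.20 on day 4 (adjusted p = 1.6e-06). On day 1 Riok2 rose by 0.46 ± 0.11 (adjusted p = 0.00998) and Mdn1, a remodelling ATPase of the large subunit, fell, with a log2 change of -0.46 ± 0.082 (adjusted p = 0.00178). Npm1, nucleophosmin, rose by 0.78 ± 0.10 on day 2. The lower gene on days 3 and 4, named after its values were seen, was Nop10, a small protein of the pseudouridylation complex, at -0.69 ± 0.15 on day 3 (adjusted p = 0.00151).

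Ribosomal proteins of mitochondria, which build a separate ribosome inside the organelle, were called in both directions. Of 77 tested, 1 was higher and 1 lower on day 1, 6 and 10 on day 2, 12 and 6 on day 3, and 5 and 6 on day 4, each share below that of all genes. Mrps26 rose by 1.23 ± 0.15 on day 3 (adjusted p = 6.16e-06) and Mrpl24 by 1.08 ± 0.19 (adjusted p = 0.000237), while Mrpl34 fell, with -1.26 ± 0.21 on day 2 (adjusted p = 0.000193), as did Mrpl36 (-0.83 ± 0.15, adjusted p = 0.000545) and, on day 4, Mrpl41 (-0.83 ± 0.17, adjusted p = 0.000728). On day 1 Mrpl9 rose by 0.53 ± 0.15 (adjusted p = 0.0322). Of the cytosolic ribosomal proteins that the name rule misses, Fau and Rpsa did not pass on any day in edgeR. Fau, made as a fusion with a ubiquitin-like protein, had 0.62 ± 0.29 on day 4 (adjusted p = 0.101) and Rpsa 0.33 ± 0.14 (adjusted p = 0.0752).

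Of 18 regulators of TOP translation and mTORC1, 6 were higher and 2 lower on day 3, and 10 did not pass, where 20.4% of all genes were higher and 20.1% lower. Sesn2, a stress-induced inhibitor of mTORC1, had 10.1, 5.53 and 8.55 CPM on day 0, 28.4, 36.9 and 34.7 on day 1 and 99.1, 108 and 132 on day 3, with no overlap, a change of 3.82 ± 0.19 (adjusted p = 8.78e-11). Pdcd4, an inhibitor of the helicase eIF4A, fell over the same days, from 459, 551 and 534 CPM to 146, 139.7 and 139 on day 3, a log2 change of -1.86 ± 0.079 (adjusted p = 1.46e-11). Eif4ebp1, the translation repressor 4E-BP1, named after its values were seen, rose by 3.64 ± 0.30 (adjusted p = 3.36e-08), and Larp1 had 0.15 ± 0.089 (adjusted p = 0.184). Of 9 ribosome quality control genes tested, 4 were higher (44.4%, beside 20.4% of all genes) and 1 lower on day 3. Among those higher were Ascc3 (0.65 ± 0.094, adjusted p = 2.79e-05), which takes apart collided ribosomes, and Hbs1l (0.52 ± 0.10, adjusted p = 0.000582). On day 4 Usp10 fell (-0.58 ± 0.12, adjusted p = 0.000673).

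**Figure D4:**
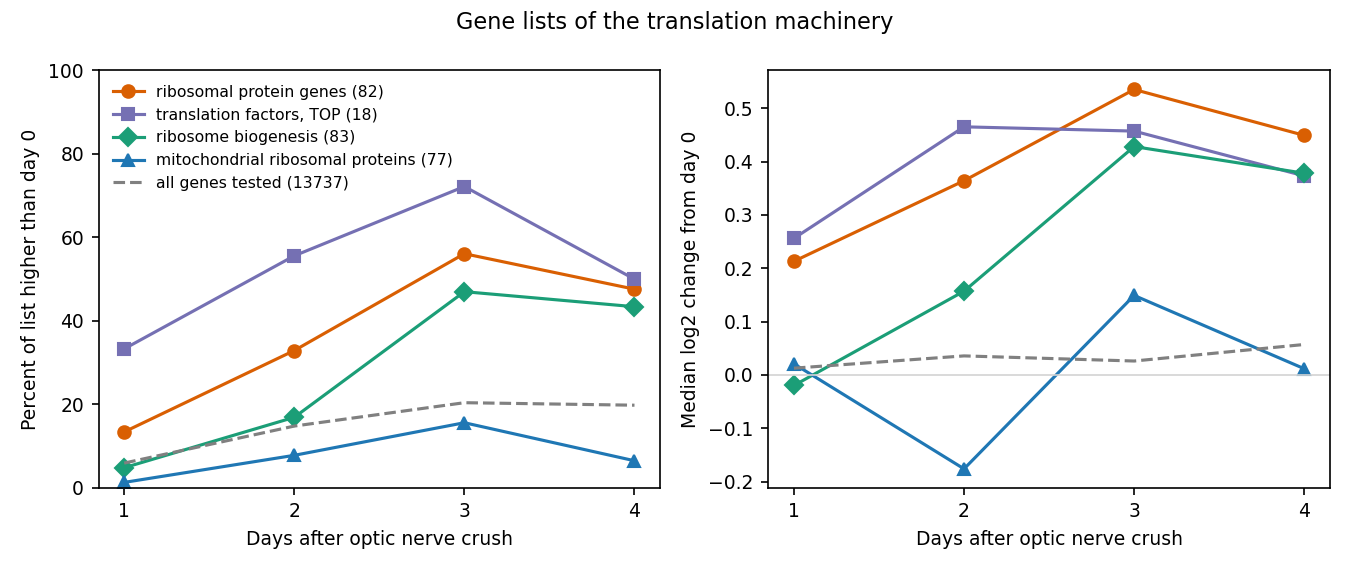
Percent of each gene list called higher than day 0 (left) and median log2 change from day 0 (right) by days after crush (horizontal axes), with all genes tested as dashed lines. On day 3 the ribosomal protein genes reach 56.1%, the TOP translation factors 72.2% and ribosome biogenesis 47%, and the mitochondrial ribosomal proteins 15.6%, beside 20.4% of all genes.

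Markers of other cells also moved with time. All 9 RGC markers were measured, at a summed 10100 to 11200 CPM on day 0, 7330 to 9180 on day 1, 6730 to 7290 on day 2, 7510 to 8060 on day 3 and 6390 to 6690 on day 4, with 7 of 9 lower and 1 higher on day 3. Of 6 Müller glia and astrocyte markers 5 were measured, at a summed 288 to 315 CPM on day 0, 368 to 386 on day 1, 395 to 396 on day 2, 487 to 549 on day 3 and 706 to 805 on day 4. The single markers did not all move with that sum. On day 2, 2 were higher and 1 lower, with a median log2 change of -0.368. On day 3, 2 were higher and 1 lower (median 0.267), and on day 4, 2 were higher and 0 lower. The 7 rod markers summed to 226 to 1030 CPM on day 0, 798 to 1050 on day 1, 266 to 345 on day 2, 650 to 787 on day 3 and 307 to 656 on day 4, and the 8 microglia and macrophage markers to 37.8 to 68.7 on day 0, 54.4 to 295 on day 1, 134 to 163 on day 2, 21.6 to 31.8 on day 3 and 97.2 to 161 on day 4. The 5 bipolar markers summed to 120 to 161 CPM over all days, the 5 cone markers to 10.4 to 30.4, and the amacrine and horizontal markers (6 of 7 measured) summed to 184 to 435 on day 0, 352 to 388 on day 1, 498 to 596 on day 2, 301 to 408 on day 3 and 370 to 388 on day 4. Of these 6, 3 were higher and 0 lower on day 2, 1 higher and 2 lower on day 3, and 0 higher and 1 lower on day 4. Of the 5 bipolar markers, 1 was lower on day 1, and 2 were higher on day 3 and 2 on day 4. No cone marker was called on days 1 to 4. Of the 7 rod markers, 1 was higher on day 1 and 2 on day 3, with 0 lower on any day. Of the 8 microglia and macrophage markers, 2, 4, 0 and 4 were higher on days 1 to 4, and 1 was lower on day 3. On day 3 against day 1, 7 of these 8 were lower and 0 higher. Of the vascular markers 1 of 4 was measured, at 0.812 to 2.56 CPM over all days, and of the oligodendrocyte markers 2 of 3, at 16.9 to 30.3. The part of other cells in the members' change was not tested.

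No promoter peak of a member was more accessible after crush in the fit described here. In a fit of day and batch with edgeR's quasi-likelihood test, 0 of 85 promoter peaks were higher and 10 lower on day 1, with 1 higher and 61 lower (71.8%) at an unadjusted p under 0.05. That unadjusted share was 11.3% over all peaks and 84.2% over the promoter peaks of similar strength. On day 3, 0 were higher and 0 lower, with 0 higher and 8 lower (9.41%, beside 13.1% of all peaks) at an unadjusted p under 0.05, and between days 1 and 3 also 0 and 0 (10 higher and 1 lower unadjusted). DESeq2's Wald test gave 0 higher and 44 lower on day 1, beside 6.26% and 7.23% of all peaks, 0 and 6 on day 3, beside 15.3% and 10.4%, and 0 and 0 between days 3 and 1. Over all 151630 peaks in the edgeR fit, 5.44% were higher and 2.4% lower on day 1, 16.4% and 7.39% on day 3, and 0.987% and 0.193% on day 3 against day 1. The median log2 change of the 85 peaks was -0.355 on day 1 and -0.126 on day 3, beside 0.064 and 0.025 over all peaks. The peaks were wide (median 3740 bases) and rich in counts, and the 6280 promoter peaks with at least 1289 counts on average, a level near that of the members, had a median of -0.414 on day 1, with 25.6% called lower. Against that share, 10 of 85, or 11.8%, is not a result about the members. The share at that strength was not computed for the Wald test, so its 44 cannot be read as such a result either.

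The 10 peaks lower on day 1 belonged to Rpl11, Rpl22, Rpl26, Rpl27, Rpl29, Rpl38, Rpl5, Rps27l, Rps4l and Rps19bp1, each the strongest promoter peak of its gene. At Rpl38 (chr11:114666576-114671943) the lowest, median and highest CPM were 43.1, 52.5 and 59.4 in the 6 day 0 libraries, 37.3, 40.5 and 41.8 on day 1 and 31.6, 45.0 and 61.5 on day 3. Day 1 lay below day 0, and day 3 overlapped both; the fitted change was -0.54 ± 0.14 on day 1 (adjusted p = 0.0283) and -0.19 on day 3 (adjusted p = 0.202). At Rps27l (chr9:66944558-66947077), whose RNA was higher on day 3, accessibility measured 32.4, 37.1 and 42.2 CPM on day 0, 24.1, 25.1 and 26.2 on day 1 and 25.9, 34.2 and 39.4 on day 3. Its day 1 libraries were again below all of day 0 and overlapped the lowest of day 3, with a change of -0.52 ± 0.14 (adjusted p = 0.0371). At Rpl10 (chrX:74269006-74274493) the values were 61.0, 63.0 and 65.03 CPM on day 0, 51.3, 51.5 and 52.4 on day 1 and 40.7, 60.4 and 81.5 on day 3, and neither day passed (-0.34, adjusted p = 0.145, and -0.060, adjusted p = 0.769). Rps15a (chr7:118112148-118118826) gave 49.4, 54.1 and 59.2 CPM on day 0, 46.0, 47.9 and 47.9 on day 1 and 38.6, 49.8 and 68.6 on day 3, with a day 3 change of -0.091 (adjusted p = 0.566). At both genes day 3 spanned the day 0 range on either side.

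These calls depended on the processing. The share of reads in peaks was 0.157 to 0.186 in the day 1 libraries, against 0.322 to 0.496 on day 0 and 0.173 to 0.456 on day 3, so that a weaker signal over background moved with day 1; its part in the result was not tested beyond the fits that follow. With that share as a term 0 peaks were lower on day 1, and with the trend of change against peak strength removed by lowess also 0 (median -0.031). Within batch 2, which alone holds all 3 days, 53 were lower and 1 higher, beside 12.4% and 14.6% of all peaks in that fit. The share among promoter peaks of similar strength was not computed there, so the 53 cannot be read as a result about the members. Scaling by library size alone gave 4 lower and 1 higher, beside 1.33% and 16.6% of all peaks. On the deposited batch-adjusted values limma gave 0 of either, and the median turned to 0.069. Leaving out single libraries gave 0 lower on day 1 without day 0 replicate 1 or 3 or any of day 1 replicates 1, 2 and 3, 1 without day 0 replicate 2, 5 without day 0 replicate 5, and 19, 23, 27, 19 and 45 without day 3 replicates 2, 3, 4, 5 and 6. On day 3 it gave 2 lower without day 0 replicate 6 and 18, 2 and 6 without day 3 replicates 1, 5 and 6. The authors' deposited table listed 0 of the 85 peaks changed on day 1, beside 1.7% of all peaks higher and 2.1% lower. On day 3 it listed 0 higher and 1 lower, beside 11.8% and 8.6%.

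**Figure D5:**
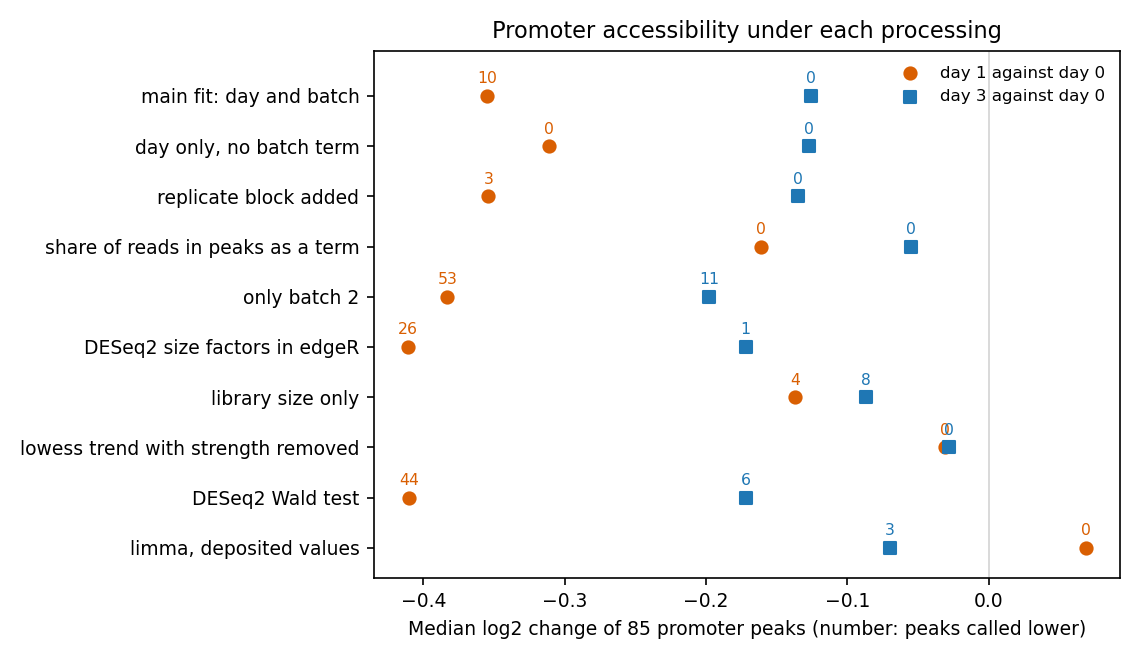
Median log2 change of the 85 promoter peaks from day 0 (horizontal axis) on day 1 (circles) and day 3 (squares) under each processing (rows), with the number of peaks called lower above each point. The day 1 median runs from -0.411 to 0.0687 and the number called lower from 0 to 53.

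The authors also deposited footprint scores for 4 stress-response factors of the bZIP family, from 1 set of reads per day with no replicate, which allows no test. Sites in promoters of members numbered 22 for ATF3, 8 for ATF4, 17 for CEBPG and 7 for DDIT3, and several are the same site scored under more than 1 factor. The authors called 15, 19 and 20 of the 22 ATF3 sites bound on days 0, 1 and 3, where 50.6%, 81.9% and 85.2% of all 6906 promoter sites of ATF3 were. For ATF4 it was 4, 8 and 7 of 8, against 39.1%, 78.2% and 79.6%, for CEBPG 10, 17 and 12 of 17, against 41.3%, 79.2% and 80.9%, and for DDIT3 3, 7 and 5 of 7, against 37.6%, 77.9% and 79.3%. The 4 highest-scoring sites that lie within a RefSeq window are shown, chosen after their scores were seen, with the site in capitals on the plus strand and 15 bases on each side.
Rpl18, ATF4 site (chr7:45718026-45718069, plus strand): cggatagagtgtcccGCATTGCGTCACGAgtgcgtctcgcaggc
Rpl23, ATF3 site (chr11:97782420-97782460, plus strand): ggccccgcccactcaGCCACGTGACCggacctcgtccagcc
Rpl41, ATF3 site (chr10:128549139-128549180, plus strand): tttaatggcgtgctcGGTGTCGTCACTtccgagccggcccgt
Rps9, ATF3 site (chr7:3703967-3704008, plus strand): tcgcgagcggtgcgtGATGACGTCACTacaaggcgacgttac

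The score at the Rpl18 site was 2.63 on day 0, 2.93 on day 1 and 2.68 on day 3. At Rpl23 it was 1.75 on day 0, 2.22 on day 1 and 2.05 on day 3, at Rpl41 1.85 on day 0, 1.89 on day 1 and 2.08 on day 3, and at Rps9 1.62 on day 0, 1.66 on day 1 and 2.05 on day 3. These sites were called bound on all 3 days, day 0 included. The RNA of Rpl18, a large subunit protein, rose by 0.47 ± 0.15 on day 3 (adjusted p = 0.0196), that of Rpl41, the smallest ribosomal protein, by 0.59 ± 0.12 (adjusted p = 0.00116), that of Rpl23 by 0.46 ± 0.15 (adjusted p = 0.0187) and that of Rps9 by 0.57 ± 0.10 (adjusted p = 0.000154). Lower-scoring ATF4 sites near Rps15a, Rpl11 and Rpl22l1 were called unbound on day 0 and bound on day 1, with scores of 0.0986 and 0.153 at Rps15a and 0.137 and 0.278 at Rpl11. Rps15a RNA did not pass the test on day 1 and was higher on day 3, while Rpl11 and Rpl22l1 did not pass on either day.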

How the data were processed

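RNA-seq (13 libraries, not stranded, SMART-Seq v4 per the labels) and ATAC-seq (15 libraries) of sorted RGCs were analysed from the deposited tables. Raw read counts per gene and per peak were made by the authors, with STAR, Picard and HTSeq for RNA and Bowtie2, MACS2, ChIPseeker and featureCounts for ATAC on mm10, per the submitters' processing notes. The authors also deposited log2 values (normalized RNA, batch-adjusted ATAC), and their comparison tables give log2 changes and p-values, and footprint scores are the authors' own, from 1 set of reads per day. The share of reads in peaks is a fraction in the authors' deposited covariate table. How multiply mapped RNA reads were handled is not stated in the labels.

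Counts were tested with edgeR 4.0.16 (R 4.3.3; TMM, filterByExpr, glmQLFit and glmQLFTest, two-sided, Benjamini-Hochberg over all features, threshold 0.05), with day as the only RNA term and day plus batch for ATAC; DESeq2 1.42.0 and limma 3.58.1 were alternatives. The fit was tested on simulated data. CPM used TMM-scaled library sizes, and fold changes came from the edgeR fit with its default prior count. A prior count of 2 entered only the log2 CPM used for the lowess trend and for the comparison of same-numbered libraries. ATAC libraries held 20006724 to 72579102 counts. ATAC groups follow titles and treatment labels, since some descriptions disagree with them.

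Named genes were the 3 largest rises and falls per day among called members, members of known role, paralog pairs, called promoter peaks, and per pathway list the 2 genes with the smallest adjusted p per day. The members, lists and tests were chosen with earlier results of these data known. Some members enter the counts but are not reported here by name. Members were matched to promoter sequences and pseudogenes by symbol.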

Additional observations from a re-analysis of the deposited data

Results flagged for a closer look

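At 1 promoter peak, that of Rpl22, day 0 replicate 2 was flagged as an outlier, at 38.05 CPM against 40.64 to 42.21 in the other day 0 libraries. This was the only such case in 54 groups of 27 peaks. Chance flags about 1 group in 20, so 1 case is not more than chance would give.

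The effect of day 3 differed from that of day 1 in 16 of the 82 members, by edgeR's test of day 3 against day 1 with an adjusted p under 0.05, in which the shared day 0 libraries cancel. All 16 were higher, 19.5% of the set, beside 16.1% of all genes higher and 17.5% lower. Their number is thus close to the background. Among the 16, the difference on the log2 scale was 1.16 for Rps15a, 0.842 for Rps4l, 0.632 for Rpl7l1, 0.62 for Rps20, 0.606 for Rps3, 0.593 for Rplp0 and 0.588 for Rpl41. It was 0.559 for Rps19bp1, 0.469 for Rps18, 0.462 for Rpl36al, 0.455 for Rpl13a, 0.413 for Rpl23, 0.38 for Rpl4, 0.375 for Rps24 and 0.373 for Rps25. Of these 16, 10 were called under every alternative, among them Rps15a, Rps4l, Rpl7l1, Rps20, Rps3, Rplp0, Rpl41, Rpl13a and Rpl4.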

How the results depend on the processing

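In RNA, the number of members higher on day 1 (11) became 17 with library size only, 4 with only the 2 days in the fit, 4 with the first pair of sequencing components and 5 with limma on the deposited values. Of all genes, 8.04%, 3.05%, 4.39% and 3.54% were higher in these fits. With library size alone the median log2 change of all genes was 0.0856, 0.119, 0.104 and 0.148 on days 1 to 4. In the main fit it was 0.0127, 0.0357, 0.0261 and 0.0571. With the sequencing components the day 2 count was 13, the day 4 count 16 and the day 3 against day 1 count 10, and with only the groups compared the day 4 count was 24. Leaving out 1 library gave 2 to 13 on day 1, 12 to 30 on day 2, 19 to 39 on day 4, 10 to 22 for day 3 against day 1, and 0 to 1 lower on day 3. Same-numbered RNA libraries did not deviate together (0 of 22 pairs over 0.1, r from -0.126 to 0.0676, 5 of 13 libraries closest to their own number), nor did all ATAC pairs (3 of 12 over 0.1, -0.391 to 0.211, 9 of 15). The replicate block gave 12, 29, 44 and 34 members higher on days 1 to 4 and 15 for day 3 against day 1. Of all genes, 5.87%, 14.1%, 20.1%, 19.4% and 15.8% were higher in that fit. Over 1104 alternative values of 48 single-gene RNA calls, 968 kept the call, 136 lost it and 0 reversed.

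In ATAC, the 10 peaks lower on day 1 became 0 with day only, 3 with the replicate block, 0 with a term for the reads in peaks, 53 in batch 2 alone, 26 with DESeq2 size factors, 4 with library size only, 0 with lowess, 44 with DESeq2's Wald test and 0 with limma on batch-adjusted values. Of all peaks, 0%, 0.803%, 0.0264%, 12.4%, 5.06%, 1.33%, 0.425%, 7.23% and 0% were lower in these fits, in that order. Batch 2 alone and library size each gave 1 higher, beside 14.6% and 16.6% of all peaks. On day 3 the 0 lower became 11, 1, 8, 6 and 3 in batch 2, with DESeq2 size factors, library size, the Wald test and limma. The shares of all peaks were 12.5%, 9.77%, 6.42%, 10.4% and 9.93%. Shares among promoter peaks of similar strength were not computed for these fits. Leaving out 1 library gave 0 to 45 lower on day 1, 0 to 18 on day 3, and 0 to 1 higher for day 3 against day 1. On batch-adjusted values the day 1 log2 change turned positive at Rpl26 (0.0276), Rpl27 (0.00508), Rpl29 (0.131), Rpl5 (0.041) and Rps19bp1 (0.000657); the cause was not tested. Low counts limit calls for the 28 members under 200 counts, with a median SE of 0.335 on day 3.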
